A study of Mus musculus with 3 samples.

Results

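The genes described here set the shape and the amount of mitochondria, and they were followed in pools of mouse blastocysts from young mothers, from aging mothers and from aging mothers with CXCL5-CXCR2 signaling suppressed during culture. They are 10 genes, Mfn1, Mfn2, Opa1, Dnm1l, Fis1, Tfam, Polg, Twnk, Ppargc1a and Nrf1, of 23458 genes that could be named on the array. Every non-control probe whose RefSeq accession maps to one of these symbols was taken, which gave 21 probes.

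Mitochondria join and divide all the time. Mitofusins fuse the outer membrane and OPA1 the inner one, while DRP1, the product of Dnm1l, is recruited to the outer membrane and cuts the organelle. Mitochondrial DNA is copied by the polymerase POLG with the helicase Twinkle (Twnk), is packaged and transcribed with TFAM, and the nuclear genes for mitochondrial proteins are driven by factors such as NRF1 and the coactivator PGC-1α (Ppargc1a). The mouse egg holds a large store of mitochondria and mitochondrial DNA, which cleavage divides among the cells, and replication of that DNA resumes at about the blastocyst stage. The Nrf1 meant here is nuclear respiratory factor 1, not the stress factor Nfe2l1 that shares its short name.

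The 3 samples were pools of 30 blastocysts, each hybridized to 1 single-color Agilent array. Females were of the outbred ICR strain and were superovulated and mated, young ones at 3 to 6 weeks and aging ones at 43 to 53 weeks of age. Zygotes were flushed from the oviducts 18 hours after hCG, the hormone that triggers ovulation, and were grown in KSOM embryo medium for 96 hours. The suppressed aging group had an antibody that neutralizes CXCL5 (10 μg/ml) and a selective antagonist of CXCR2 (10 nM) in that medium, both together, so the separate action of the antibody and of the antagonist cannot be told apart. The young and the aging group had neither agent. CXCL5 is a secreted chemokine and CXCR2 its receptor. Each condition has 1 array, so there was no replicate error between pools, no test was made, and every difference below is a difference between pools that may be larger or smaller in another pool.

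A level is the log2 spot intensity minus the 75th percentile of the same array, so a level of 0 is as bright as that percentile, and a difference of 1 is 2-fold. In the order young, aging, suppressed aging, that percentile was an intensity of 145, 155 and 122, and the lowest level called well above background by the scanner software was -4.20, -4.32 and -3.93. Levels of different probes were not set against each other, because brightness depends on the probe, and the probes of a gene are numbered here from the brightest down. Each member probe is spotted once, so the error of a spot was taken from probes that are spotted many times at levels of 4 or lower. Their median SD between spots was 0.10, 0.08 and 0.08, which gives a difference between arrays an SD of 0.13 between aging and young, 0.11 between the pools of aging mothers and 0.13 between suppressed aging and young. Among such probes at levels of 0 or lower the SD between spots was 0.17, 0.18 and 0.21. This error covers the array alone, not the embryos or the amplification.

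The cells had the markers of blastocysts. All 9 trophectoderm genes (among them Cdx2 and Krt8), all 7 inner cell mass genes (among them Nanog and Pou5f1) and all 5 primitive endoderm genes were well above background on the 3 arrays. All 7 inner cell mass genes were higher in the aging than in the young pool, by a median of 1.11 and by 1.37 for Sox2, and 7 of 9 trophectoderm genes were lower, with a median of -0.19. In the order young, aging, suppressed aging, the log2 summed level was 10.01, 10.29 and 10.17 for the inner cell mass genes, 8.99, 8.58 and 8.82 for the trophectoderm genes and 4.02, 4.29 and 4.02 for the primitive endoderm genes. Most of the inner cell mass sum came from the Nanog probe (9.88, 10.14 and 10.03). Among 8 oocyte genes, 6 were above background on at least 1 array, of which 4 were higher and 2 lower in the aging than in the young pool (median 1.05). Zp2 and Zp3 were higher there by 2.35 and 2.08, and Gdf9 and Nlrp5 gave -0.06 and -0.30. In suppressed aging against aging, 5 of the 6 were lower (median -1.22), 3 of them by over 2-fold. The log2 summed level of the list was 4.07 in the young, 4.18 in the aging and 4.01 in the suppressed aging pool, nearly all of it from H1f8 (4.01, 4.02 and 3.95). For 8 genes of cumulus and granulosa cells, Fshr, Has2, Ptx3, Tnfaip6 and Inha were not well above background on any array. Cyp19a1 (-1.18, -1.31 and -1.01) and Amh (-3.33, -3.79 and -3.68) were above it on all 3 arrays. The Foxl2 probe was bright on all of them, at 8.66, 8.54 and 8.77. Of 5 blood genes with a probe, Hbb-bt and Ptprc were not well above background anywhere. Cd68 (2.30, 1.37 and 0.80) and Hba-a1 were above it on all 3 arrays, and Alas2 on the young and aging arrays. The summed level of the list was 2.55, 2.06 and 1.17, most of it from Cd68. All 4 sperm genes were well above background on the 3 arrays, with a summed level of 0.78, 0.51 and 0.64. The part that these markers or a shift in cell makeup have in the values below was not tested. In a pool of whole embryos, fewer cells of a type and less RNA per cell cannot be told apart.

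The stretches of DNA just before 4 of the genes are shown because known binding motifs for factors of mitochondrial biogenesis could be looked for there, and these 4 windows hold matches. They come from RefSeq on GRCm38.p6, where all 10 genes matched (16 start sites), and hold the 250 bases before a start site, 5′ to 3′ on the strand of the gene. The search covered 6 motifs on both strands. Those found were the letters CCGGAAG for ETS factors, the family of GABP (also called NRF2), and the letters GCATGCG, the core of the NRF1 motif. Capitals mark these letters, or CTTCCGG where the ETS letters lie on the other strand. In Opa1 the core stands on both strands with all but 1 base shared, and the ETS letters overlap no other match.
Tfam (chr10:71238045-71238294, minus strand): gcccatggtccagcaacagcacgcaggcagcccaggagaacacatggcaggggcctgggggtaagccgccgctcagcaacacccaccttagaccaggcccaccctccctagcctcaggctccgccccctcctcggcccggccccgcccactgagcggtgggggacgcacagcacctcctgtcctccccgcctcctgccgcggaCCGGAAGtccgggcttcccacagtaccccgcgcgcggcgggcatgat
Polg (chr7:79466274-79466523, minus strand): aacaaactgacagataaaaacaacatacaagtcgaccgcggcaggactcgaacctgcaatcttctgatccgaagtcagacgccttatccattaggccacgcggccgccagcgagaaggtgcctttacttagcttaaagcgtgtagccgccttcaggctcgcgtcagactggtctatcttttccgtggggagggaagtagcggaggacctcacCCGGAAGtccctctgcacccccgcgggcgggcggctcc
Twnk (chr19:45006308-45006557, plus strand): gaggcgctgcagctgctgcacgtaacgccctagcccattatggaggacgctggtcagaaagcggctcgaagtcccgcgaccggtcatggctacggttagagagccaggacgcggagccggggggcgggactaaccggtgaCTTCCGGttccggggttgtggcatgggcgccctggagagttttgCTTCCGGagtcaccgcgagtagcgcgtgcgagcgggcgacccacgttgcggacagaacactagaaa
Opa1 (chr16:29579084-29579333, plus strand): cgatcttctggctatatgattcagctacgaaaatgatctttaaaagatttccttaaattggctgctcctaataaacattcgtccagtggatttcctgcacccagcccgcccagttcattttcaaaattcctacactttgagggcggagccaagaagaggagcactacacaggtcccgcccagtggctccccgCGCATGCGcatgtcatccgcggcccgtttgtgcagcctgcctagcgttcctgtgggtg
The ETS letters stood in windows of 5 of the 10 genes, Mfn1, Fis1, Tfam, Polg and Twnk, in 5 of their 16 windows. They stood in a window of 7.83% of all genes, or 6.91% of the 32851 windows. Twnk held them at 2 places, ending 60 and 104 bases before the start, Tfam and Polg at 1 place, ending 41 and 32 bases before it. The NRF1 letters stood in a window of Opa1 alone among the 10 genes, ending 51 bases before the start, in a window of 3.43% of all genes and in 3.02% of all windows. The other motifs searched stood in no window of the 10 genes: tcaaggtca for estrogen-related receptors (in 0.422% of all genes), cacgtg, the E-box of MYC and related factors (6.86%), tgacgtca for CREB (1.77%) and aagatggcg for YY1 (0.711%). A match is a description of letters, and no binding was measured here.

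Of the 21 probes, 18 were well above background on all 3 arrays, 1 (Nrf1 probe 4) on the young array alone, and both Ppargc1a probes on none. So 9 of the 10 genes could be compared, 7 of them by more than 1 probe.

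**Figure D1:**
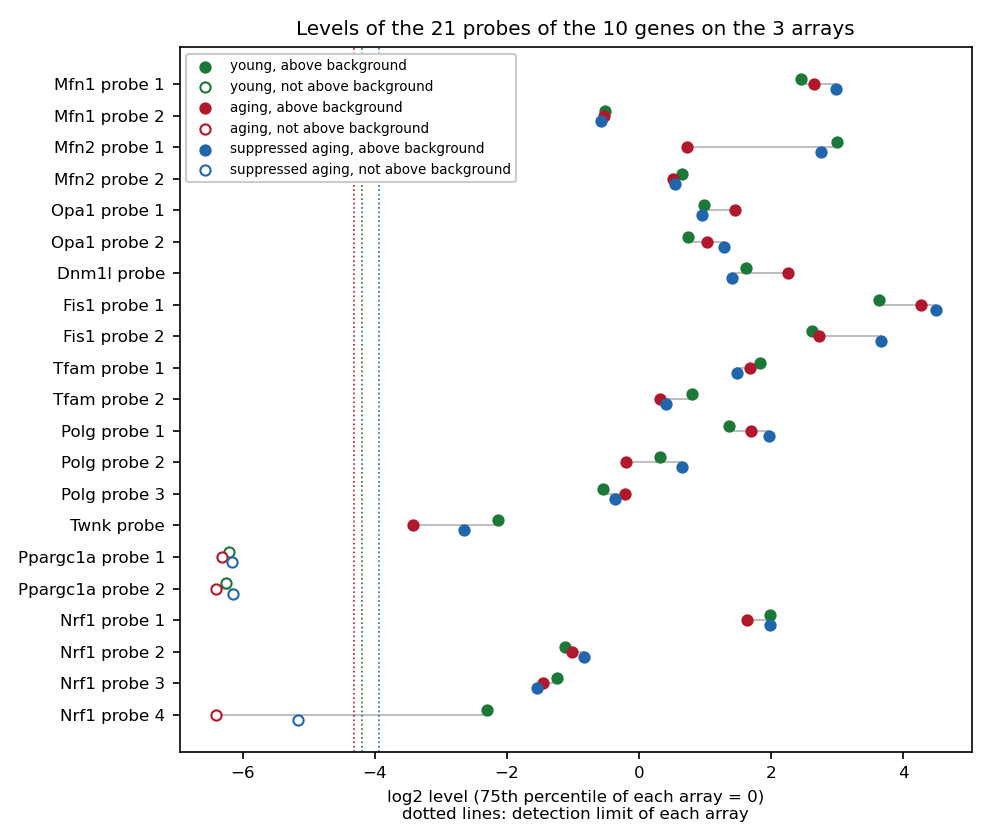
Levels of the 21 member probes (rows) on the young, aging and suppressed aging arrays (points), as log2 intensity relative to the 75th percentile of each array; open points were not well above background and dotted lines give the detection limit of each array. Mfn2 probe 1 lies at 0.72 on the aging array and at 3.00 and 2.76 on the young and suppressed aging arrays, while most probes keep their 3 points close together.

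Fusion of the outer membrane comes first. Mfn2, a mitofusin that also ties mitochondria to the endoplasmic reticulum, gave the widest spread over the arrays among the 18 member probes measured on all 3. Its probe 1 (designed on NM_133201) had intensities of 1160 in the young, 255 in the aging and 829 in the suppressed aging pool, or levels of 3.00, 0.72 and 2.76. The aging pool was low, and the other two pools were close to each other. Aging against young, the level was lower by 2.28, which is 4.85-fold, and suppressed aging against aging it was higher by 2.04, which is 4.11-fold. The suppressed aging and the young pool differed by -0.24. Under the other ways of background correction and scaling the first difference lay between -2.30 and -1.91 and the second between 1.67 and 2.05.

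Mfn2 probe 2 (designed on NM_001285920) did not share this pattern. It read 0.65 in the young, 0.51 in the aging and 0.55 in the suppressed aging pool. All 3 values lay close together, with differences of -0.14, 0.04 and -0.11, about as large as the error of a spot. The probes thus differed by 2.14 in what they gave for aging against young, the widest gap among member probes measured on both arrays. The probes name different transcript records, and where in the transcript each one lies is not given in the sources used here. The source of the gap was not tested.

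Mfn1, the partner of Mfn2 in tethering outer membranes, had a bright probe that was at 2.45 in the young, 2.66 in the aging and 2.99 in the suppressed aging pool. Its differences were 0.21, 0.33 and 0.54, each beyond 1 spot SD and all under 2-fold. Mfn1 probe 2 stood at -0.52, -0.53 and -0.57, the narrowest spread of the member probes, and did not separate the pools.

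On the side of inner membrane fusion, Opa1, the dynamin-like protein that fuses the inner membrane and keeps cristae narrow, had 2 probes of differing pattern. Probe 1 (NM_001199177) read 0.98 in the young, 1.45 in the aging and 0.95 in the suppressed aging pool, with the aging pool high and the others level. Probe 2 (NM_133752) read 0.74, 1.03 and 1.28, with the suppressed aging pool highest. Both were higher in the aging than in the young pool, by 0.47 and 0.29. In suppressed aging against aging they gave -0.50 and 0.25. With normexp, another background correction, the value of probe 2 was 0.018 there and 0.24 in place of 0.54 against the young pool.

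For fission, Dnm1l, whose product is the fission enzyme, has 1 probe, at 1.63 in the young, 2.26 in the aging and 1.41 in the suppressed aging pool. The aging pool was highest. The difference was 0.63 for aging against young, -0.85 for suppressed aging against aging. Against the young pool the suppressed aging pool was at -0.22, and all 3 differences kept their sign under every setting run.

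Fis1, a small outer membrane protein on the fission side, rested on 2 probes. Probe 1 read 3.63 in the young, 4.27 in the aging and 4.50 in the suppressed aging pool, and probe 2 read 2.63, 2.73 and 3.67. The order of the pools was the same in both, with the young pool lowest and the suppressed aging pool highest, though on probe 2 the young and aging pools lay within 1 spot SD of each other. The probes differed in where the step lay. Probe 1 was higher by 0.64 in aging against young and by 0.23 in suppressed aging against aging, while probe 2 gave 0.10 and 0.94. The suppressed aging pool exceeded the young one by 0.87 and 1.04, and the latter is 2.05-fold, just past the 2-fold limit and between 0.88 and 1.04 under the other settings.

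Among the genes of mitochondrial DNA is Tfam, whose product coats mitochondrial DNA and starts its transcription. Both of its probes read lower in both pools of aging mothers than in the young pool. In aging against young the difference of probe 1 was about as large as the error of a spot. Probe 1 read 1.84 in the young, 1.69 in the aging and 1.48 in the suppressed aging pool, and probe 2 read 0.81, 0.32 and 0.41. The young pool was the highest on both probes, and on probe 2 the pools of aging mothers lay within 1 spot SD of each other. For suppressed aging against young the probes gave close values of -0.36 and -0.40, and aging against young they gave -0.15 and -0.48. Between the aging pools the probes differed in sign, at -0.21 and 0.08, and the second was below 0 with normexp (-0.080) and with the authors' processed values.

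Polg, the catalytic subunit of the mitochondrial DNA polymerase, has 3 probes. Probe 1 read 1.37 in the young, 1.70 in the aging and 1.97 in the suppressed aging pool. Probe 2 read 0.32, -0.19 and 0.66, and probe 3 read -0.54, -0.21 and -0.36. All 3 were higher in the suppressed aging than in the young pool, by 0.60, 0.33 and 0.18. The last is about as large as the SD between spots at levels of 0 or lower, 0.17 and 0.21 on these arrays. Aging against young, probes 1 and 3 were each higher by 0.33 and probe 2 was lower, at -0.52, so the probes gave no common direction.

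Twnk, the helicase that opens mitochondrial DNA ahead of the polymerase, has 1 dim probe. Its intensity was 32.9 in the young, 14.4 in the aging and 19.4 in the suppressed aging pool, or levels of -2.14, -3.42 and -2.66. The young pool was highest and the aging pool lowest. Aging against young it was lower by 1.28, which is 2.43-fold, and suppressed aging stood 0.77 above aging and at -0.52 against young. With normexp, which shrinks differences of dim spots, the first became -0.36 and it was no longer over 2-fold. The genes whose promoter windows share the ETS letters above, Mfn1, Fis1, Tfam, Polg and Twnk, did not share a direction: aging against young the brightest probes gave 0.21, 0.64, -0.15, 0.33 and -1.28.

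Among the regulators of biogenesis, Ppargc1a, the coactivator that drives mitochondrial biogenesis in muscle, brown fat and liver, was not well above background on any array. Its probes had intensities of 1.96 and 1.90 in the young, 1.95 and 1.83 in the aging, and 1.71 and 1.72 in the suppressed aging pool. No difference is given for it. Its relative Ppargc1b, a related coactivator, was measured on all 3 arrays at 3.39, 2.44 and 3.08, which made it lower by 0.95 in aging against young and higher by 0.64 in suppressed aging against aging. Its second probe gave -0.14 and 0.49, and differed in sign from the first in suppressed aging against young (0.34 against -0.31).

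Nrf1, the factor that binds promoters of respiratory chain genes, has 4 probes. Probe 1 read 1.98 in the young, 1.64 in the aging and 1.98 in the suppressed aging pool, so the aging pool was low by 0.34 against either of the others. With normexp the suppressed aging pool was only 0.099 above the aging pool, and at -0.18 against the young one. Probe 2 read -1.11, -1.01 and -0.83 and probe 3 read -1.24, -1.46 and -1.54, spans of 0.28 and 0.30 over the pools. Probe 4 (NM_001164229) had an intensity of 29.3 in the young pool and was not well above background at 1.81 and 3.42 in the aging and suppressed aging pools. Set against the detection limit, it was at least 4.04-fold lower in the aging and at least 3.09-fold lower in the suppressed aging than in the young pool. With normexp these became differences of -0.60 and -0.38. The 3 brighter probes did not show a step of this size.

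**Figure D2:**
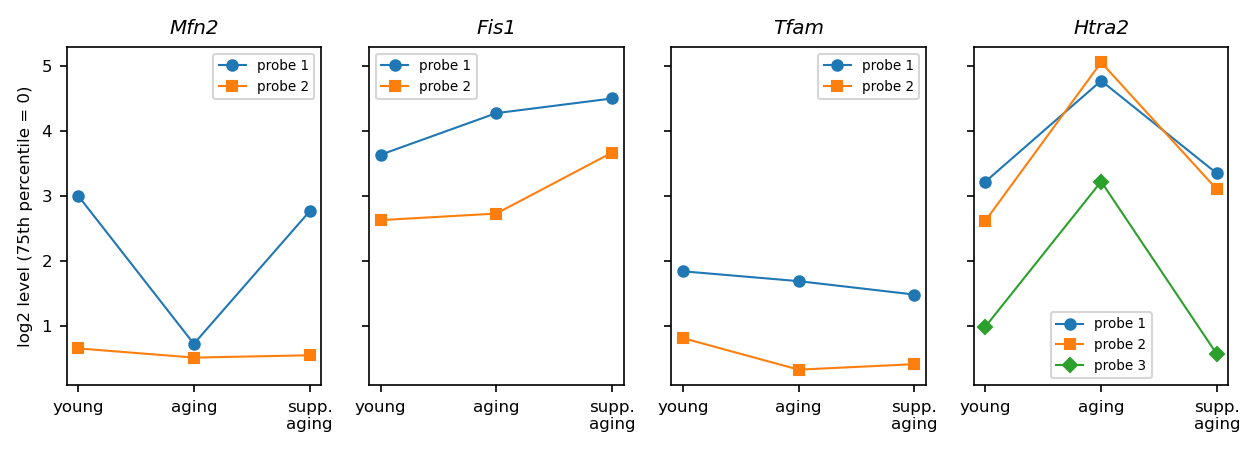
Levels (log2, relative to the 75th percentile of each array) of each probe of Mfn2, Fis1, Tfam and Htra2 on the 3 arrays, with lines joining the points of 1 probe. The Mfn2 probes differ in pattern, the Fis1 probes rank the pools alike but step at different places, the Tfam probes both have the young pool highest, and all 3 Htra2 probes peak in the aging pool.

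Counted over probes, few members were over 2-fold apart, and counts this small were not tested against the share among all probes. Aging against young, 3 of the 19 member probes with a difference or a bound were over 2-fold apart (Mfn2 probe 1, Twnk and Nrf1 probe 4), all lower in the aging pool, against 21.1% of all probes, 9.98% higher and 11.1% lower. Suppressed aging against aging, 1 of 18 was over 2-fold apart, Mfn2 probe 1, higher in the suppressed aging pool, against 19% of all probes, 9.86% higher and 9.1% lower. For suppressed aging against young the count was 2 of 19 (Fis1 probe 2 higher and Nrf1 probe 4 lower), against 18.1%, 8.88% higher and 9.19% lower. The shares over all probes include bounds of dim probes. With probes above background on both arrays alone they were 16.6%, 14.7% and 14.2%, and that filter also leaves out Nrf1 probe 4. At the 5-fold limit used in the study there were 0 member probes in each comparison, against 3%, 2.55% and 2.51% of all probes. These 3 comparisons share arrays, so a value that is odd on the aging array alone appears in both comparisons made with it, with opposite signs.

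Taken by the brightest probe of each gene, the 9 measured members had a median difference of 0.21 in aging against young, of 0.27 between the pools of aging mothers, and of -0.03 between suppressed aging and young. The median of all genes was 0.03, -0.00 and 0.03. Of the 9 genes, 5 were higher and 4 lower in aging against young. The counts were 6 and 3 in the comparison of suppressed aging with aging, and 3 and 6 in that of suppressed aging with young. When a gene's probes were averaged in place of taking the brightest, the medians were 0.048, 0.15 and -0.17. The median size of the difference, whatever its sign, was 0.47, 0.34 and 0.36 among the members and 0.44, 0.41 and 0.39 among all genes. The 18 probes measured on all arrays spanned a median of 0.52 between their highest and lowest array, against 0.63 for 28788 probes of all kinds, and 3 of them (16.7%) spanned over 1, against 27.5%.

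With each gene read by its brightest probe, Mfn2 was the member farthest from the middle of all genes. In aging against young 1.33% of 16164 genes were as low or lower. In suppressed aging against aging 1.96% of 15875 genes were as high or higher. This place of Mfn2 rests on probe 1 alone, since probe 2 gave -0.14 and 0.04 in these comparisons. Twnk came next in aging against young, where 5.82% of genes were as low or lower. Fis1 was the highest member in suppressed aging against young, where 10.9% of 15931 genes were as high or higher. Dnm1l was the lowest member in suppressed aging against aging, where 10.9% of genes were as low or lower.

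**Figure D3:**
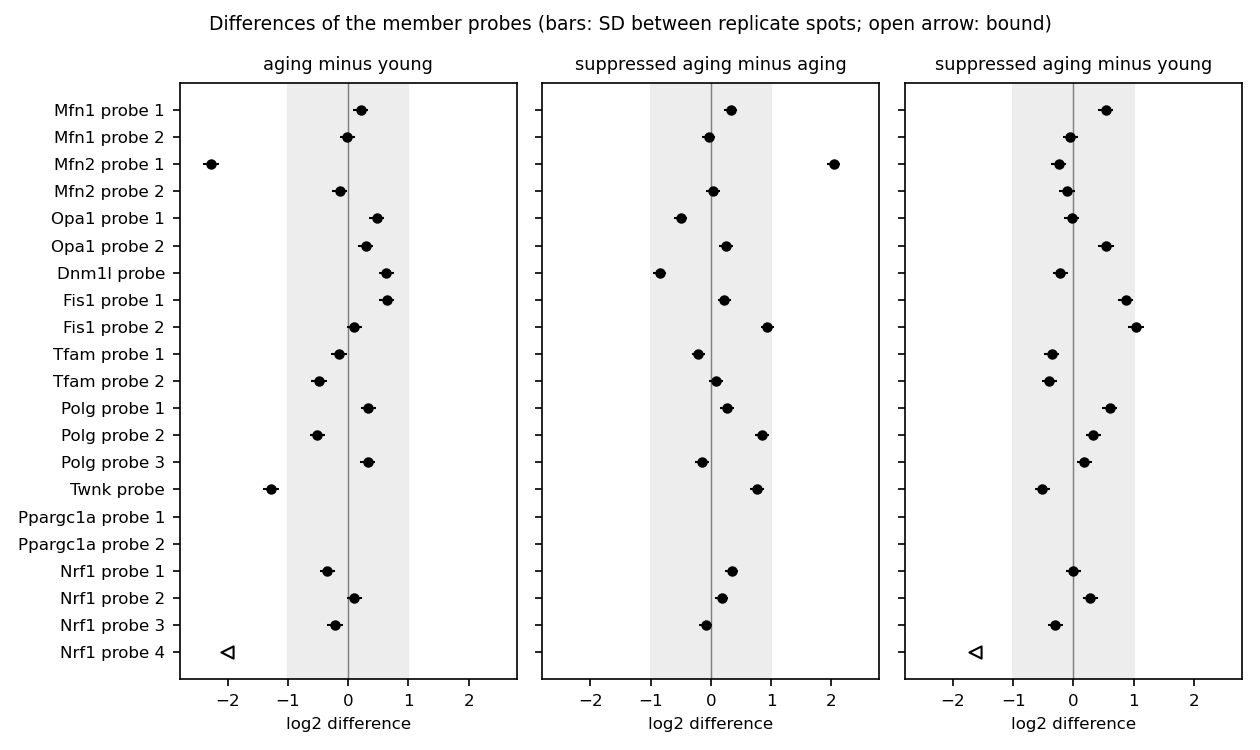
Differences of the member probes (rows) in the 3 comparisons (panels), in log2 units, with bars of 1 SD between replicate spots and open arrows for bounds against the detection limit; the gray band is 2-fold. Few points leave the band: Mfn2 probe 1 (-2.28 and 2.04), Twnk (-1.28), Fis1 probe 2 (1.04) and the bounds of Nrf1 probe 4.

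**Figure D4:**
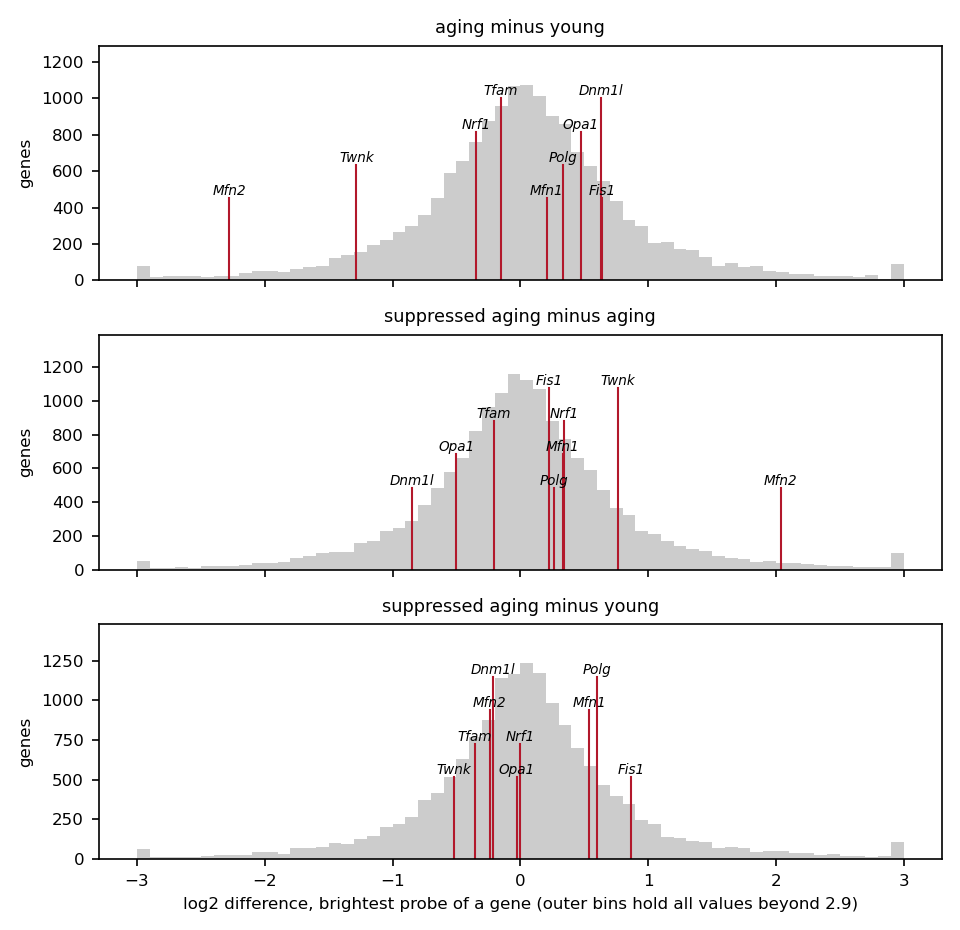
Counts of genes by log2 difference of their brightest probe (gray bars; 16164, 15875 and 15931 genes from top to bottom), with red lines at the 9 measured members. The members lie mainly in the bulk of each distribution, and Mfn2 lies in the lower tail of the top panel and the upper tail of the middle one.

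Probes of the same gene were a check that does not need replicate pools. Of the 7 member genes with more than 1 measured probe, all probes had the same sign in 4 genes in aging against young, in 2 genes between the pools of aging mothers, and in 4 between suppressed aging and young. Among all genes with at least 2 measured probes, the 2 brightest alone were compared, and they shared a sign in 56.7%, 54.8% and 56.1%. The measures are unlike for Polg and Nrf1, which have 3 measured probes. Between the pools of aging mothers their 2 brightest probes did share a sign, at 0.27 and 0.85 for Polg and 0.34 and 0.18 for Nrf1. In aging against young they did not. Of 670 genes whose brightest probe was over 2-fold apart in aging against young, 20.3% had a second probe over 2-fold apart in the same direction, and 18.4% of 571 genes did in suppressed aging against aging. Mfn2 was not among them in either comparison.

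The wider machinery around the members was read from 5 lists with 119 genes, of which 115 were above background on at least 1 array. Aging against young, 72 genes were higher and 43 were lower (median 0.13), and 12 of 115 (10.4%) were over 2-fold apart, against 19% of all genes. Suppressed aging against aging, 46 were higher and 68 were lower (median -0.11), and 12 of 114 (10.5%) were over 2-fold apart, against 17.3%. Suppressed aging against young, 58 were higher and 57 were lower (median 0.02), and 16 (13.9%) were over 2-fold apart, against 16.3%. The shares over all genes include bounds of dim probes, while few list genes gave a bound. Over all probes above background on both arrays alone, 16.6%, 14.7% and 14.2% were over 2-fold apart. Whether the lists differ from all genes in this share was not tested. Of all genes, 51.9%, 49.7% and 52.4% were higher in these comparisons, with medians of 0.03, -0.00 and 0.03. Whether the lists differ from all genes in direction was not tested.

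Among 19 measured partners of fusion and fission, 13 were higher in aging against young (median 0.13) and 11 were lower in suppressed aging against aging (median -0.25). Pld6, a phospholipase of the outer membrane, was at 1.63 in the young, 2.11 in the aging and 1.01 in the suppressed aging pool, 1.10 below the aging pool. The second Pld6 probe was not above background on both arrays. Inf2, a formin that builds actin at sites of division, stood at 1.18, 1.83 and 0.71, and was lower by 1.13 in suppressed aging against aging. For both, the aging pool was the highest and the suppressed aging pool the lowest. Both were named because they were low in suppressed aging against aging, so that part of the order was set by the choice. Mtfr1, a fission regulator, was at 1.44, 2.48 and 1.77, and Fundc2 at 0.75, 1.87 and 1.26, over 2-fold higher in the aging than in the young pool on the brightest probe. In that comparison the second Mtfr1 probe gave 0.46 and the other Fundc2 probes gave -0.05 and 0.69.

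The list of inner membrane shape and mitochondrial proteases, with 24 genes, had medians of 0.13, -0.03 and 0.07. Htra2, a serine protease of the space between the membranes, was over 2-fold apart on every one of its probes. Its 3 probes, all on NM_019752, read 3.22, 4.77 and 3.35 (probe 1), 2.62, 5.05 and 3.10 (probe 2), and 0.99, 3.22 and 0.56 (probe 3) in the young, aging and suppressed aging pools. In aging against young they were higher by 1.55, 2.44 and 2.23, and in suppressed aging against aging they differed by -1.43, -1.95 and -2.66. All 3 had the aging pool high and the other pools at most 0.48 apart. Samm50, which sorts proteins into the outer membrane and joins it to cristae, went the other way, at 1.79, 0.75 and 2.03, with 1 probe. Chchd6, a cristae organizer, was dim at -3.59, -1.99 and -2.58, and Mtx1, at 0.02, 0.81 and 1.08, was higher by 1.06 in suppressed aging against young, where its second probe gave 0.33.

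Genes that copy, repair and transcribe mitochondrial DNA, 29 of 31 measured, had medians of 0.06, -0.04 and 0.03. Mterf2, of the termination factor family, has 1 probe, which was dim in the young pool. It was at -2.77 in the young, -0.63 in the aging and -1.67 in the suppressed aging pool, 2.14 higher in aging against young. Tfb2m, the transcription factor that melts mitochondrial promoters with the polymerase, was at 2.44, 3.69 and 3.22, higher by 1.25. The second Tfb2m probe was not above background on both arrays. Polrmt, the mitochondrial RNA polymerase and partner of these factors, was level at 1.34, 1.47 and 1.31. In the suppressed aging pool against the young one, the pyrimidine carrier Slc25a36 was higher by 1.06, and the nucleases Endog and Dna2 were lower, at -1.14 and -1.07. Ssbp1, which coats single-stranded mitochondrial DNA at the fork with Twinkle and POLG, was at 6.02, 6.08 and 6.61 on its brightest probe. The second Ssbp1 probe was over 2-fold apart, at -1.34 in aging against young and 1.12 in suppressed aging against aging.

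Biogenesis regulators, 27 of 28 measured, had medians of 0.18, -0.15 and 0.04. Aging against young, the brightest probes of Myc and Crtc2 were higher by 1.14 and 1.66, though their second probes gave 0.21 and -1.22, and the corepressor Nrip1 was at -1.09. Suppressed aging against aging, Nfe2l2, the master factor of the antioxidant response, was higher by 1.43. The second Nfe2l2 probe was not above background on both arrays of any comparison. In suppressed aging against aging, Prkaa2, a catalytic subunit of AMPK, was higher by 1.64 on the brightest probe and gave -0.26 on the other. In the same comparison the nuclear receptor Ppard was at -1.21 and Gabpb1, a subunit of the ETS factor GABP, at -1.25, while the other Gabpb1 probes gave -0.62, 0.08 and 1.03. Gabpa, the DNA-binding subunit of that factor, was at 3.14, 2.82 and 2.69 on its brightest probe, which is -0.32 in aging against young, where its other probes gave 0.26 and 0.48. In the suppressed aging pool against the young one, Nfe2l2 and Crtc2 were higher by 1.55 and 1.64 (0.38 on the second Crtc2 probe), and Prkab2 (an AMPK subunit) and the deacetylase Sirt3 were at -1.55 and -1.25. Esrrb, counted in this list, is also one of the inner cell mass genes above, and was higher by 1.11 in aging against young.

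The 18 genes of transport and mitophagy had medians of 0.14, -0.18 and -0.05. Nipsnap1, a signal for mitophagy on damaged mitochondria, was at -0.41, 1.07 and 1.08, so both pools of aging mothers stood above the young one, by 1.48 and 1.49. Pink1, the kinase that marks damaged mitochondria, was at 0.41, 1.08 and 0.30 and stayed under 2-fold in each comparison. Usp30, the deubiquitinase that opposes it, was close to the detection limit at -3.74 in the young, not well above background in the aging, and at -2.39 in the suppressed aging pool. Against the young pool the suppressed aging pool was higher by 1.35.

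**Figure D5:**
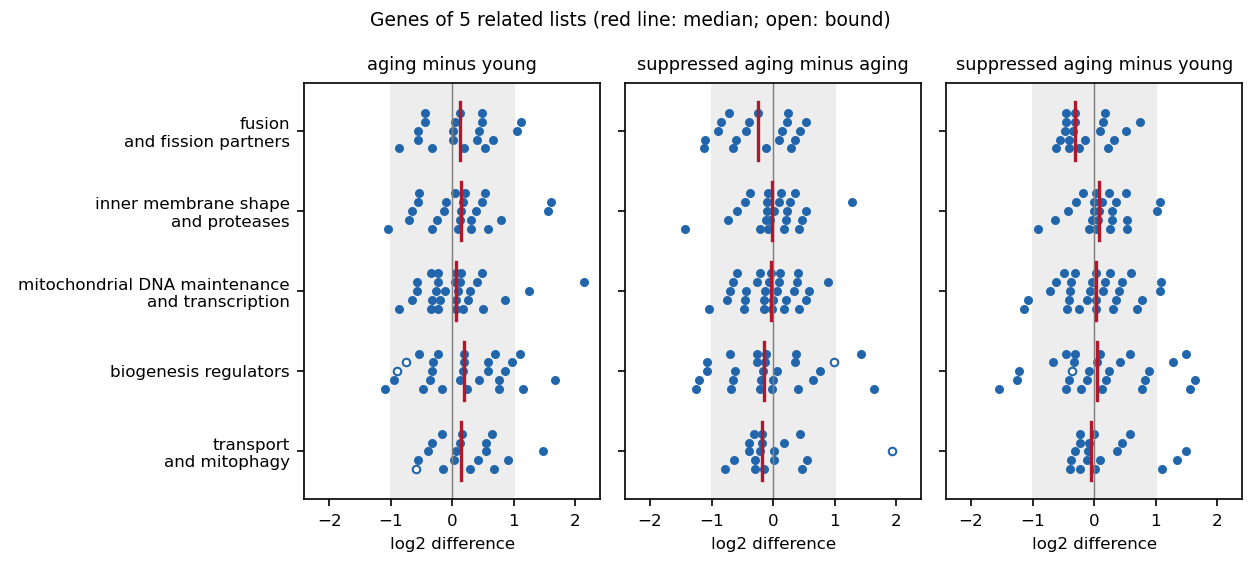
Log2 differences of genes in 5 lists around the members, 1 point a gene (brightest probe), in the 3 comparisons; red lines are list medians, open points are bounds and the gray band is 2-fold. The medians lie between -0.31 and 0.18, with all 5 above 0 in aging minus young and all 5 below 0 in suppressed aging minus aging. The medians of all genes were 0.03 and -0.00 in these comparisons.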

How the data were processed

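Levels of 3 mouse arrays, 1 per condition, were read from scanner output. The authors deposited spot intensities, background-subtracted and detrended by Agilent Feature Extraction 12.0.3.1 (version as in the submitters' processing notes), with no scaling between arrays. Their table of processed values held the same linear intensity times 1 factor per array (3.46 young, 3.34 aging, 3.96 suppressed aging; medians 174.9, 186.1 and 173.5), checked on the same probes. Per the study's methods the RNA was amplified by a single-primer global PCR, which can distort ratios, while the labels name another labeling kit. The embryos were not replicated.

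Control spots and outlier spots were left out, log2 intensities of a probe's spots were averaged and set relative to the array's 75th percentile, which left 56591 probes, 33759 of them named through RefSeq accessions (GRCm38.p6 table, names only, since the array was designed on another build). A probe counted as above background when over a share of 0.5 of its spots were flagged so. A probe above background on 1 of 2 arrays gave a bound against the other array's detection limit, and on neither gave no difference. Genes were read by the probe with the highest mean signal. Calls were over 2-fold. All probes of the members were named, and from each related list, in each comparison, at most the 2 highest and 2 lowest genes over 2-fold apart and above background on both arrays. Genes named beyond that (Ppargc1b, Polrmt, Ssbp1, Gabpa, Esrrb, Pink1 and the marker genes) were picked with their values in view. The members and the lists were chosen with earlier results of these data known. Python 3.11.15 with pandas 2.3.3 and R 4.3.3 with limma 3.58.1 (normexp, offset 50) were used, and the calculation was tested on simulated data. The 10 alternatives run are given at the end.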

Additional observations from a re-analysis of the deposited data

How the results depend on the processing

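No paired analysis was possible because no condition has a replicate array. The settings tried were normexp, quantile normalization, centring on probes above background on all 3 arrays or on housekeeping genes, the authors' values, outlier spots kept, probe averaging, 2 filters on dim probes and a 5-fold limit. No difference over 2-fold turned its sign. Among 19, 18 and 19 probe differences, 18, 15 and 18 kept their sign under the 8 of these settings that give values of single probes (7 for Nrf1 probe 4), and those that did not were small (the probes 2 of Mfn1, Mfn2 and Tfam and the probes 1 and 3 of Nrf1).

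Aging against young, the median of the members was 0.21, 0.048 with the mean over a gene's probes and 0.053 without a filter. The count over 2-fold was 3, and 1 with normexp (4.52% of all probes then passed) and 0 at 5-fold. Suppressed aging against aging, the median of 0.27 was 0.15 with the mean over probes, and the count of 1 was 2 without a filter and 0 at 5-fold. Suppressed aging against young, the median of -0.03 was -0.17 with the mean over probes. The count of 2 was 0 with normexp, 1 with quantile normalization, 1 with the authors' values, 1 with probes above background on both arrays alone, and 0 at 5-fold. Without a filter the median of all genes moved to -0.11 in aging against young and to 0.13 in suppressed aging against aging.

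In alternatives chosen after seeing the data, the medians of the 5 lists kept their sign, except for 2 lists in suppressed aging against young. The biogenesis list was at -0.02 without a filter. The mitochondrial DNA list kept its sign under 5 of 8 settings and was lowest with normexp (-0.09). The differences of the Htra2 probes stayed between 1.52 and 2.48 in aging against young and between -2.75 and -1.42 in suppressed aging against aging. With normexp, suppressed aging against aging shrank for Opa1 probe 2 (0.25 to 0.018) and Nrf1 probe 1 (0.34 to 0.099), and the cause was not tested. Twnk and Nrf1 probe 4 lie where signal over background limits what can be read, and the single pool per condition limits every value.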
